A study of Mus musculus with 12 samples.

Results

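Genes that moved in opposite directions in fat and liver under LY were sought across all 12 arrays of the series, 6 of subcutaneous adipose tissue (SAT) and 6 of liver (LIV). LY (LY2584702 tosylate) is an inhibitor of the ribosomal protein S6 kinase S6K1. The question was which genes responded to it differently in both tissues that the study followed, the depot that stores fat and the organ into which fat spills over. The male C57BL/6N mice, 8 weeks old at the start, received LY (HFD + LY, animals 16, 18 and 20) or vehicle (HFD, animals 8, 11 and 14) by gavage every 12 hours for 12 weeks. All 6 ate a high-fat diet with 60% of its kcal from fat for the last 10 of these weeks, so the comparison holds no lean animal. Each animal gave 1 SAT (inguinal fat) and 1 LIV array. The effect of LY in a tissue is the mean log2 signal of the HFD + LY arrays minus that of the HFD arrays, and the interaction is the effect in SAT minus the effect in LIV, fitted by limma with the animal as a block. Values after ± are standard errors of these fits. Higher and lower give the sign of an effect, and a gene was taken as moved oppositely where the signs differed. Signs alone select many genes: 9531 of 19505 genes with a symbol had opposite signs, 4877 (25.0%) higher in SAT and lower in LIV and 4654 (23.9%) the other way round. The number of arrays limits the precision, and with 3 animals a group the lowest p that an exact permutation test allows, two-sided, is 0.1.

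S6K1 acts below mTORC1, the complex through which insulin and nutrients raise protein and lipid synthesis. The sterol-sensing arm of lipid synthesis is run by SREBP transcription factors, which are held in the endoplasmic reticulum by INSIG proteins while sterols are plentiful and switch on the enzymes of cholesterol and fatty acid synthesis when sterols run low. The liver makes cholesterol and fatty acids and exports them in lipoproteins, while fat cells mainly store fatty acids as triglyceride.

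The tissues carried their own markers. Adipoq, the adipocyte hormone adiponectin, had log2 signals of 13.29 to 13.63 on the SAT arrays and 6.25 to 6.72 on the LIV arrays, and Alb, the serum albumin of hepatocytes, 14.43 to 14.59 on the LIV arrays and 8.84 to 10.59 on the SAT arrays. Skeletal muscle genes stood out in the SAT of a pair of animals. The mean log2 signal of 23 muscle genes was 12.3 in the SAT of HFD animal 11 and 12.1 in that of HFD + LY animal 20, against 8.92 in HFD animal 14, 7.71 to 7.85 in the other SAT arrays and 7.54 to 7.67 in LIV. Some results are therefore also given without animals 11 and 20. In whole tissue, fewer cells of a type and less RNA per cell cannot be told apart.

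By limma, 0 of 22206 probe sets (0.0%) passed an adjusted interaction p under 0.05. The smallest adjusted p was 0.0813, for Cyp4a12b, an omega-hydroxylase of fatty acids in male liver, with -0.02 in SAT and -1.53 in LIV. At an unadjusted p under 0.05 there were 1471 probe sets (6.62%), 657 (2.96%) with the SAT effect above the LIV effect and 814 (3.67%) with it below. The genes below are thus the leading ones at an unadjusted threshold, and their values are given array by array. At an unadjusted p under 0.01, 324 probe sets passed and 279 of them (1.26% of all tested) had opposite signs, 125 (0.563%) higher in SAT and lower in LIV and 154 (0.694%) lower in SAT and higher in LIV. With each array centred on its median the first direction held 99 of 294, so the balance of the directions depended on the scaling. It turned where only probe sets with 1 gene symbol were fitted, with 118 higher and 103 lower in SAT. Of the 279, 60 carry no symbol. The balance depended more on single animals, with 120 higher and 59 lower in SAT where animal 14 was left out. The counts were 116 and 260 without animal 11, 218 and 156 without animal 20 and 68 and 173 without animal 16. They were 76 and 101 without animal 18 and 98 and 83 without animal 8. The size of the interaction in these 279 ran from 0.401 to 2.34 on the log2 scale, with a median of 0.678.

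Opposite signs were often lopsided. In 57 of the 279 probe sets the effect was under 0.1 in size in SAT or in LIV, as for Mup9, a pheromone carrier, with -1.84 in SAT and 0.05 in LIV. Effects of at least 0.3 in size in each tissue were held by 17 probe sets higher in SAT and by 50 lower in SAT, of which 36 carry no gene symbol. Among genes with effects of at least 0.3 in both, Cyp51, with -0.42 in SAT and 0.83 in LIV, lay just inside the threshold of 0.01 and Csf1, with 0.33 and -0.43, just outside it. Tested within each tissue, 122 probe sets had an unadjusted p under 0.05 in both, 70 with the same sign and 52 with opposite signs, 27 (0.122%) higher in SAT and lower in LIV and 25 (0.113%) the reverse. After median centring the first direction held 19 of 51. With 1 animal left out it held 12 of 27 (animal 8), 22 of 29 (animal 14), 11 of 51 (animal 16), 12 of 18 (animal 18) and 49 of 75 (animal 20). HFD and HFD + LY arrays were fully separated in both tissues, in opposite directions, in 130 probe sets (0.585%), and in the same direction in 144. Of the 279, 52 were apart in both tissues.

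**Figure D1:**
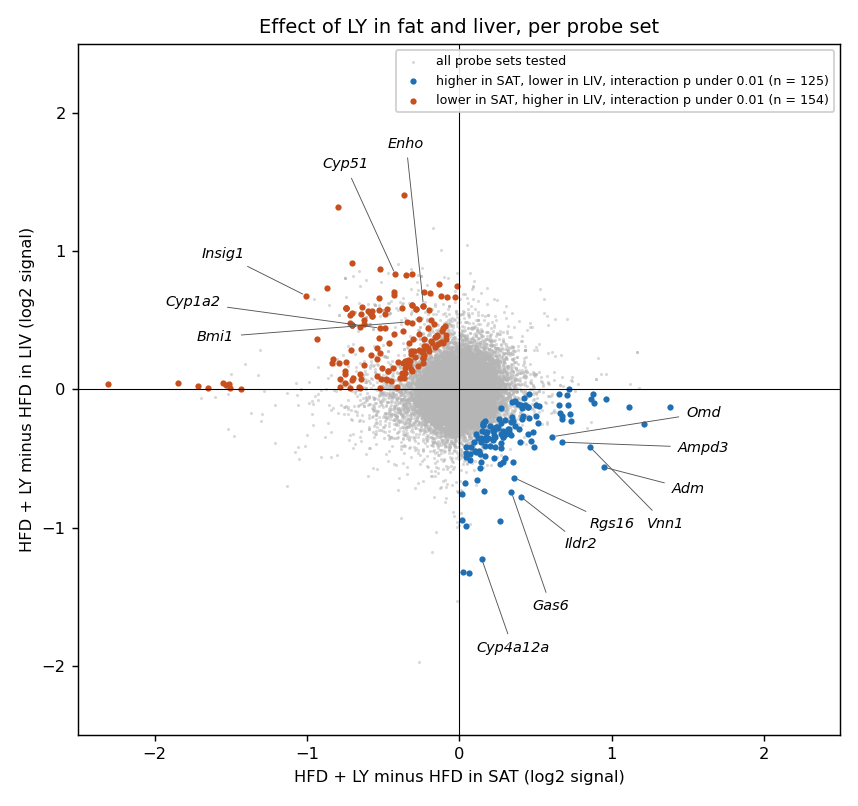
Each point is a probe set, placed by the difference in log2 signal between HFD + LY and HFD mice in SAT (horizontal) and in LIV (vertical). The 125 coloured points at the lower right were higher in SAT and lower in LIV at an unadjusted interaction p under 0.01, the 154 at the upper left the reverse, and the grey points are all 22206 probe sets. Some coloured points lie along an axis, where the effect in the other tissue was close to 0.

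Genes of cholesterol synthesis were a group largely lower in SAT and higher in LIV. Of 18 measured genes of this list, 14 were lower in SAT and higher in LIV of HFD + LY mice, 0 were the reverse, and all 18 had a positive effect in LIV. The median effect was -0.19 in SAT and 0.52 in LIV, against -0.0044 and -0.0083 over all genes, and the median interaction was -0.72. At an unadjusted interaction p under 0.05, 10 of the 18 had the SAT effect below the LIV effect and 0 above it, where 3.28% and 3.05% of all genes did. In LIV alone 9 were higher and 0 lower, beside 2.96% and 4.09% of all genes, and in SAT alone 1 was lower and 1 higher, beside 3.01% and 1.88%. The enzymes concerned run from the start of the pathway (Hmgcs1, Mvk and Pmvk, which make and phosphorylate mevalonate) through its middle (Sqle, the squalene epoxidase) to the late sterol steps (Cyp51, Nsdhl and Hsd17b7). The tenth call, Msmo1, had a positive effect in both tissues, the smaller in SAT.

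Insig1, which holds SREBP back in the endoplasmic reticulum and is itself a target of SREBP, had the largest interaction of the list. Its log2 signals in SAT were 11.51, 10.05 and 11.10 in HFD mice and 9.56, 9.60 and 10.48 in HFD + LY mice, in the order of the animal numbers. In LIV they were 10.67, 10.79 and 10.47 in HFD mice and 10.99, 11.71 and 11.26 in HFD + LY mice. The LIV groups did not overlap, with all 3 HFD + LY arrays higher, while in SAT HFD animal 11 lay below HFD + LY animal 20, the pair with the muscle signal. The effect was -1.01 ± 0.38 in SAT and 0.68 ± 0.18 in LIV, and the interaction -1.68 ± 0.45 (adjusted p = 0.636 by limma). Without animals 11 and 20 the interaction was -2.51, with -1.72 in SAT and 0.78 in LIV, and its unadjusted p stayed under 0.05 with each animal left out in turn.

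Cyp51, the lanosterol demethylase, read 8.26, 7.71 and 8.19 in HFD mice and 7.39, 7.54 and 7.96 in HFD + LY mice in SAT, where animals 11 and 20 again bridged the groups. In LIV it read 8.70, 9.23 and 8.62 in HFD mice and 8.91, 10.30 and 9.84 in HFD + LY mice, with HFD + LY animals 18 and 20 above every HFD array and animal 16 within their range. The interaction was -1.26 ± 0.38 (adjusted p = 0.684 by limma). Sqle, with an effect of -0.17 in SAT and 1.17 in LIV, had the largest LIV effect of the list. Hmgcs1 had effects of -0.24 and 0.71, Mvk -0.19 and 0.41, and Nsdhl -0.65 and 0.75, in SAT and LIV in this order. Stard4, a carrier of cholesterol between membranes, had -0.18 and 0.45. Fdft1, the squalene synthase, went the same way in both tissues (0.23 and 0.45), as did Msmo1, Sc5d and Ebp. Mmab, an enzyme of cobalamin handling outside the list, had -0.29 ± 0.12 in SAT and 0.36 ± 0.15 in LIV. Its unadjusted interaction p was no longer under 0.05 without animal 8, 14 or 18.

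The count of sterol genes leaned on single animals. The 10 at an interaction p under 0.05 became 2 where animal 8, 14 or 18 was left out, but 15 with animal 11 left out and 15 again with both 11 and 20 left out, where 17 of the 18 were lower in SAT and higher in LIV. By a plain test of each animal's SAT minus LIV difference, without limma's shared variance, 0 of the 18 passed. The median interaction kept its sign in every one of these fits, from -0.55 to -1.07. In the effects of single members, drawn with their standard errors, the SAT and LIV values of the sterol list lie on either side of 0 in most rows, while those of the fatty acid list differ mainly in SAT.

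**Figure D2:**
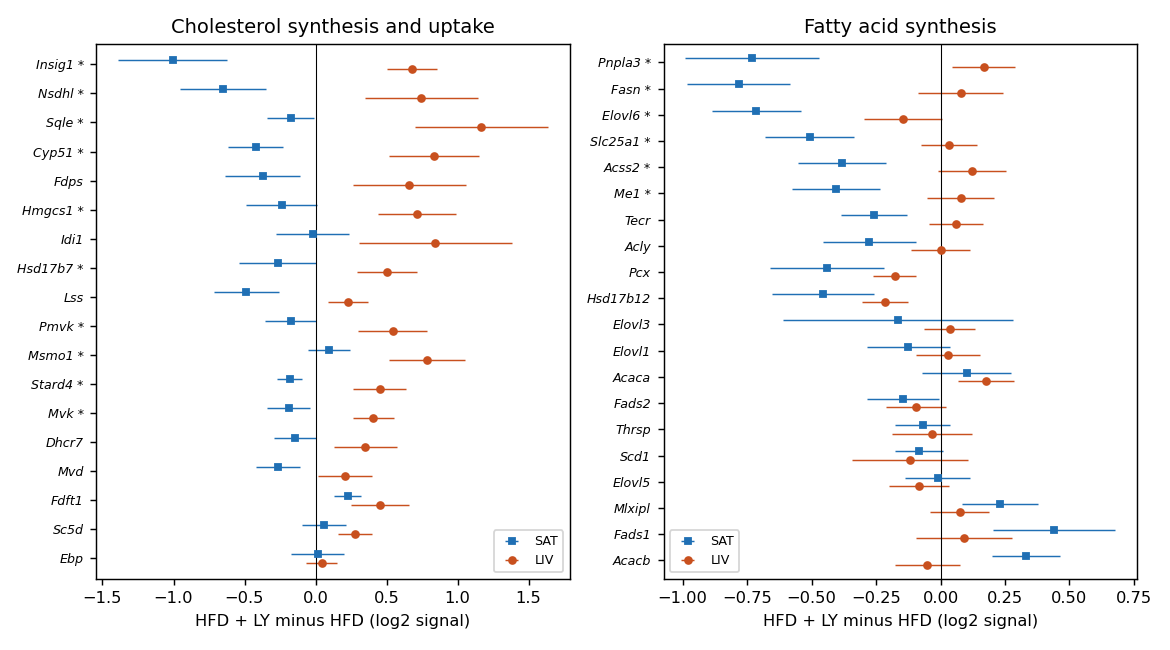
Difference in log2 signal between HFD + LY and HFD mice for the measured genes of cholesterol synthesis and uptake (left, 18 genes) and of fatty acid synthesis (right, 20 genes), squares for SAT and circles for LIV. Bars are limma standard errors, and a star marks an unadjusted interaction p under 0.05, as held by 10 sterol genes and 6 fatty acid genes.

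Fatty acid synthesis shared the SAT side of this pattern but hardly its LIV side. Of 20 measured genes, 9 were lower in SAT and higher in LIV and 1 the reverse, with a median effect of -0.21 in SAT and 0.03 in LIV. The interaction had p under 0.05 in 6, all with the SAT effect below the LIV effect, while 6 were lower and 1 higher in SAT alone at that p, and 0 were higher and 1 lower in LIV alone (of all genes, 3.28% had such an interaction and 3.01% were lower in SAT). Fasn, the fatty acid synthase, had log2 signals of 12.72, 12.17 and 12.44 in HFD mice and 11.33, 11.63 and 12.01 in HFD + LY mice in SAT and of 10.43, 10.94 and 10.71 in HFD mice and 10.47, 10.95 and 10.90 in HFD + LY mice in LIV. The SAT groups did not overlap and the LIV groups did. Its effect was -0.78 ± 0.20 in SAT and 0.08 ± 0.17 in LIV, a LIV value whose sign turned without animal 8 or animal 18. Without animals 11 and 20 the effects were -1.10 and 0.14. Pnpla3, a lipase of lipid droplets, had -0.73 ± 0.26 in SAT and 0.17 ± 0.12 in LIV. Acss2, which makes acetyl-CoA from acetate, had -0.38 ± 0.17 and 0.12 ± 0.13. Both overlapped in both tissues. Slc25a1, the mitochondrial citrate carrier, had -0.51 and 0.03. Elovl6, which lengthens fatty acids, had effects of the same sign (-0.71 ± 0.17 in SAT, with the groups apart, and -0.15 ± 0.15 in LIV). The LIV median of this list is within 0.1 of 0 and took the other sign without animal 8, 18 or 20. The 6 interaction calls became 1 with animal 8 left out, 2 with animal 14, 3 with animal 18 and 4 with animal 16, 11 with both 11 and 20 left out, and 0 by the plain test.

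Subunits of the proteasome, the complex that degrades ubiquitin-tagged proteins, formed a second such group, with small and even effects. Of 30 measured subunits, 28 were lower in SAT and higher in LIV of HFD + LY mice, 0 the reverse, and all 30 had a positive effect in LIV. The median was -0.08 in SAT and 0.12 in LIV, and the median interaction -0.21. At p under 0.05 the interaction was negative in 7 and positive in 0, beside 3.28% and 3.05% of all genes. In LIV alone 0 passed and in SAT alone 1 was lower, which is near the 3.01% of all genes. The 7 were the core subunit Psma1, the ATPase Psmc2 and the regulatory subunits Psmd4, Psmd6, Psmd8, Psmd12 and Psmd13, of which Psmd4 binds ubiquitin chains. Psmd6 read 11.41, 11.78 and 11.43 in HFD mice and 11.18, 11.31 and 11.28 in HFD + LY mice in SAT and 11.22, 11.22 and 11.31 in HFD mice and 11.40, 11.45 and 11.46 in HFD + LY mice in LIV. Its groups did not overlap in either tissue, with HFD + LY below HFD in SAT and above it in LIV, and the interaction was -0.47 ± 0.15 (adjusted p = 0.724 by limma). For Psma1 the groups were likewise apart in both tissues, with effects of -0.17 ± 0.09 in SAT and 0.17 ± 0.09 in LIV. Psmd4 and Psmd12 were also apart in both. Shifts of this size depended on the scaling. With quantile normalization within each tissue 17 subunits had opposite signs and 3 an interaction p under 0.05, and with median centring 26 and 7. The median interaction ran from -0.14 to -0.23 over these and the other alternatives, leaving out single animals included, but the 7 interaction calls became 1 with animal 18 left out, 3 with animal 14 or 16, 4 with animal 8 or with both 11 and 20, and 14 by the plain test. Cytosolic ribosomal proteins (20 of 34 lower in SAT and higher in LIV) and subunits of oxidative phosphorylation (25 of 42) had many opposite signs too, but 0 of either list passed for the interaction. Their SAT medians of -0.05 and -0.03 were 0.02 and 0.03 after quantile normalization.

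Chaperones of the endoplasmic reticulum, which fold secreted and membrane proteins, split in the same direction in part. Of 22 measured, 10 were lower in SAT and higher in LIV and 3 the reverse, and the interaction was negative at p under 0.05 in 5 and positive in 0, beside 3.28% and 3.05% of all genes. Hspa5, the Hsp70 of the endoplasmic reticulum known as BiP, had log2 signals of 11.49, 11.18 and 11.40 in HFD mice and 11.25, 11.28 and 11.13 in HFD + LY mice in SAT. In LIV they were 11.46, 11.41 and 11.51 in HFD mice and 11.83, 11.84 and 11.55 in HFD + LY mice. HFD + LY arrays were all higher in LIV, and the SAT groups overlapped. The effects were -0.14 ± 0.11 and 0.28 ± 0.11. Hyou1, a larger chaperone of the same compartment, had -0.19 ± 0.12 and 0.23 ± 0.10, with the groups apart in LIV. Dnajb11, a cochaperone of Hspa5, had -0.17 ± 0.16 and 0.29 ± 0.12. Creld2, a gene of the unfolded protein response, had -0.07 ± 0.12 and 0.35 ± 0.13. Calr, the lectin chaperone calreticulin, was lower in SAT (-0.39) with -0.01 in LIV. Other members, among them Hsp90b1, Pdia6 and Herpud1, had interaction p over 0.7. The 5 calls became 2 with animal 14 or 16 left out and 3 with animal 18 or by the plain test.

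**Figure D3:**
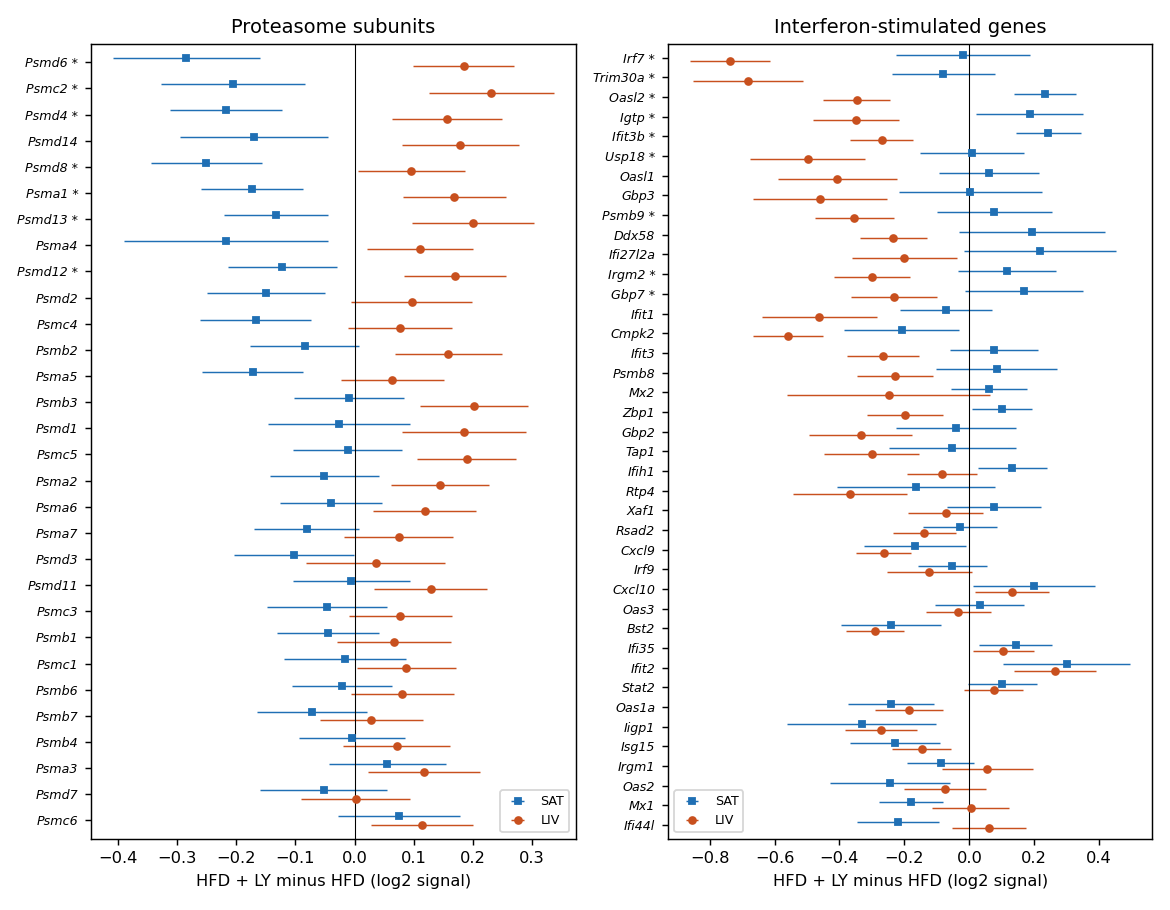
Difference in log2 signal between HFD + LY and HFD mice for 30 proteasome subunits (left) and 40 interferon-stimulated genes (right), squares for SAT and circles for LIV, with limma standard errors and a star for an unadjusted interaction p under 0.05. In 28 proteasome subunits the SAT value is below 0 and the LIV value above it, and in 18 interferon genes the SAT value is above 0 and the LIV value below it.

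Interferon-stimulated genes, the antiviral genes that interferons switch on, leaned the other way. Of 40 measured, 18 were higher in SAT and lower in LIV and 3 the reverse. The interaction had p under 0.05 in 9, all with the SAT effect above the LIV effect, beside 3.05% of all genes. In LIV alone 14 were lower at that p and 0 higher, beside 4.09% and 2.96% of all genes, with a median of -0.24. Macrophage and Kupffer cell genes were also lower in LIV, with a mean over 21 genes of 8.12 to 8.27 on the HFD arrays and 7.90 to 8.04 on the HFD + LY arrays, and their part in the interferon values was not tested. In SAT alone 2 interferon genes were higher and 0 lower, beside 1.88% and 3.01% of all genes, with a list median of 0.02 that turned to -0.02, -0.003 and -0.06 where animal 11, 16 or 18 was left out. The LIV median was thus the one farther from 0. Oasl2, an antiviral protein of the oligoadenylate synthetase family, was apart in both tissues. Its log2 signals were 7.61, 7.64 and 7.47 in HFD mice and 7.76, 7.89 and 7.79 in HFD + LY mice in SAT. The LIV signals were 7.75, 7.46 and 7.71 in HFD mice and 7.32, 7.25 and 7.31 in HFD + LY mice. Every HFD + LY array was above the HFD arrays in SAT and below them in LIV, and the interaction was 0.58 ± 0.15 (adjusted p = 0.636 by limma). All signals of Oasl2 were low, below the array medians given below for Cyp1a2. Ifit3b, which binds viral RNA, was apart in the same way, with 0.24 ± 0.10 in SAT and -0.27 ± 0.10 in LIV. Igtp and Irgm2, GTPases that act on membranes of intracellular parasites, had 0.19 ± 0.16 and -0.35 ± 0.13, and 0.12 and -0.30. Usp18, which removes ISG15 from proteins, had 0.01 ± 0.16 and -0.50 ± 0.18, its SAT sign turning without animal 11, 16 or 18. Irf7, the transcription factor that amplifies the interferon response, was lower in LIV (-0.74) with -0.02 in SAT, and Trim30a, a TRIM protein induced by interferon, had -0.68 in LIV and -0.08 in SAT. Ifi27l2b, outside the list, read 7.64, 7.65 and 7.73 in HFD mice and 7.94, 8.0 and 7.89 in HFD + LY mice in SAT and 8.51, 8.28 and 8.45 in HFD mice and 7.96, 7.59 and 8.07 in HFD + LY mice in LIV, apart in both. The 9 interaction calls became 14 with animal 20 left out and 6 with animal 18 left out, and were 5 with no replicate block.

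Since 14 interferon members were lower in LIV at an unadjusted p under 0.05, the promoters of the list were searched for the interferon-stimulated response element, a short motif known from genes of this kind. In the 250 bases before the start of transcription in RefSeq (GRCm38.p6), the letters GAAANNGAAA occurred on either strand in 17 of the 32 list members with a promoter in the table, beside 3.46% of 27025 genes. Of the 8 members with an interaction p under 0.05 and a promoter there, 5 held a match. They are shown with 40 bases on either side where the window allows, the match in capitals (TTTC forms are matches on the other strand).
Ifit3b (chr19:34607729-34607852, plus strand): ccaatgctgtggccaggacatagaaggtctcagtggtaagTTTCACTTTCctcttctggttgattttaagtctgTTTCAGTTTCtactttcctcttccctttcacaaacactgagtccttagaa
Igtp (chr11:58199482-58199555, plus strand): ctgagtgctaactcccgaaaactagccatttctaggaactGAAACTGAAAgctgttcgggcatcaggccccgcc
Irgm2 (chr11:58214873-58214962, plus strand): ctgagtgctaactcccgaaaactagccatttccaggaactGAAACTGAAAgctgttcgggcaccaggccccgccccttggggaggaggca
Trim30a (chr7:104465194-104465269, minus strand): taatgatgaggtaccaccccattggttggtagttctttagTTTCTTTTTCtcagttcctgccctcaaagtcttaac
Gbp7 (chr3:142530243-142530332, plus strand): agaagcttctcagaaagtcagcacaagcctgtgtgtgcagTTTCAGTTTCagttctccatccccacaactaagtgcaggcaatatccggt

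The stretches of Igtp and Irgm2, which neighbour each other, are near-identical. In the sterol list, the letters TCACNCCAC, a form of the sterol regulatory element to which SREBP binds, occurred in 1 of the 14 members with a promoter in the table, beside 1.22% of all genes. This was Hmgcs1, whose stretch has the match in capitals.
Hmgcs1 (chr13:119690174-119690262, plus strand): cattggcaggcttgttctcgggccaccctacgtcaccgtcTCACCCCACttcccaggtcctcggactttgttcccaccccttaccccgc

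In the proteasome list, the letters TGACNNNGC of the antioxidant response element occurred in 3 of 24 members, beside 11.5% of all genes. A match is a description of the letters and not a measured site.

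Among single genes higher in SAT and lower in LIV, Ildr2 had the smallest interaction p of those with effects of at least 0.3 in both tissues. It encodes a membrane protein of the immunoglobulin family that has been linked to lipid handling in mouse liver. Its log2 signals were 7.81, 7.88 and 8.57 in HFD mice and 8.45, 8.65 and 8.37 in HFD + LY mice in SAT and 9.55, 9.66 and 9.85 in HFD mice and 8.82, 8.93 and 8.98 in HFD + LY mice in LIV. In LIV all HFD + LY arrays were lower, and in SAT HFD animal 14 read as high as the treated mice. The interaction was 1.18 ± 0.17 (adjusted p = 0.17 by limma). Ampd3, an AMP deaminase of purine turnover, read 10.58, 10.22 and 10.83 in HFD mice and 10.93, 11.31 and 11.41 in HFD + LY mice in SAT and 7.90, 7.84 and 7.97 in HFD mice and 7.33, 7.60 and 7.64 in HFD + LY mice in LIV, apart in both tissues. Its effects were 0.67 ± 0.18 and -0.38 ± 0.11, and the interaction 1.05 ± 0.16 (adjusted p = 0.17 by limma).

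Rgs16, which shortens signals of G protein-coupled receptors, was also apart in both tissues. In SAT it read 6.99, 6.96 and 6.91 in HFD mice and 7.44, 7.26 and 7.24 in HFD + LY mice, a range far below that of LIV. In LIV it read 11.26, 11.08 and 11.19 in HFD mice and 10.39, 10.44 and 10.79 in HFD + LY mice. Its effects were 0.36 ± 0.10 and -0.64 ± 0.12, with an interaction of 1.00 ± 0.17 (adjusted p = 0.328 by limma). Adm, the vasodilator adrenomedullin, had SAT signals of 11.13, 10.25 and 10.60 in HFD mice and 11.75, 11.85 and 11.21 in HFD + LY mice. Its LIV signals were 7.95, 8.20 and 8.34 in HFD mice and 7.34, 7.51 and 7.94 in HFD + LY mice. The groups were apart in both tissues, by the smallest margin between HFD animal 8 and HFD + LY animal 20 in each. Adm had the largest interaction of the named genes in this direction, 1.51 ± 0.37 (adjusted p = 0.632 by limma).

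Gas6, a ligand of the TAM receptors that clear dying cells, had effects of 0.34 ± 0.15 in SAT and -0.74 ± 0.16 in LIV. Ppl, the cytolinker periplakin, had 0.35 ± 0.12 and -0.52 ± 0.12 in this order. Caprin2, an RNA-binding protein, had 0.40 ± 0.08 and -0.38 ± 0.13. All HFD + LY arrays of Caprin2 in SAT (7.44 to 7.46) were above the HFD arrays (7.02 to 7.06). Fmo2, a flavin monooxygenase, had 0.33 ± 0.11 and -0.31 ± 0.10. Omd, a small leucine-rich matrix protein, had 0.61 ± 0.19 and -0.34 ± 0.12 (0.74 and -0.18 without animals 11 and 20). Irx1, a homeobox factor, had 0.48 ± 0.14 and -0.31 ± 0.10. The groups of Ppl, Fmo2, Omd and Irx1 were apart in both tissues, while those of Gas6 overlapped in SAT and those of Caprin2 in LIV. Slc13a1, a sulfate transporter, had 0.34 ± 0.10 and -0.33 ± 0.15. On every array Ppl, Caprin2, Omd, Irx1 and Slc13a1 had low signals, below the array medians given below for Cyp1a2, as did Rgs16 in SAT. Ccl24, a chemokine for eosinophils, had 0.31 ± 0.10 and -0.32 ± 0.13. Ift43, of the transport complex of cilia, had 0.27 ± 0.10 and -0.25 ± 0.08, and was apart in both tissues. The unadjusted interaction p of each of these named genes, from Ildr2 to Ift43, stayed under 0.05 with each animal left out in turn. They were picked for small p on these same arrays, so this largely follows from the choice. Macrophage genes, as a whole list, had medians of -0.16 in SAT and -0.19 in LIV, with 5 of 21 lower in SAT and 4 lower in LIV at an unadjusted p under 0.05, beside 3.01% and 4.09% of all genes. Single members differed, with interactions from -2.34 to 0.65. The interaction was positive in 3 and negative in 3 at that p, beside 3.05% and 3.28% of all genes. The mean of that list ran from 8.84 to 9.38 in SAT of HFD mice and from 8.82 to 8.89 in SAT of HFD + LY mice, and from 8.12 to 8.27 and from 7.90 to 8.04 in LIV, and its part in Ccl24 and Gas6 was not tested.

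**Figure D4:**
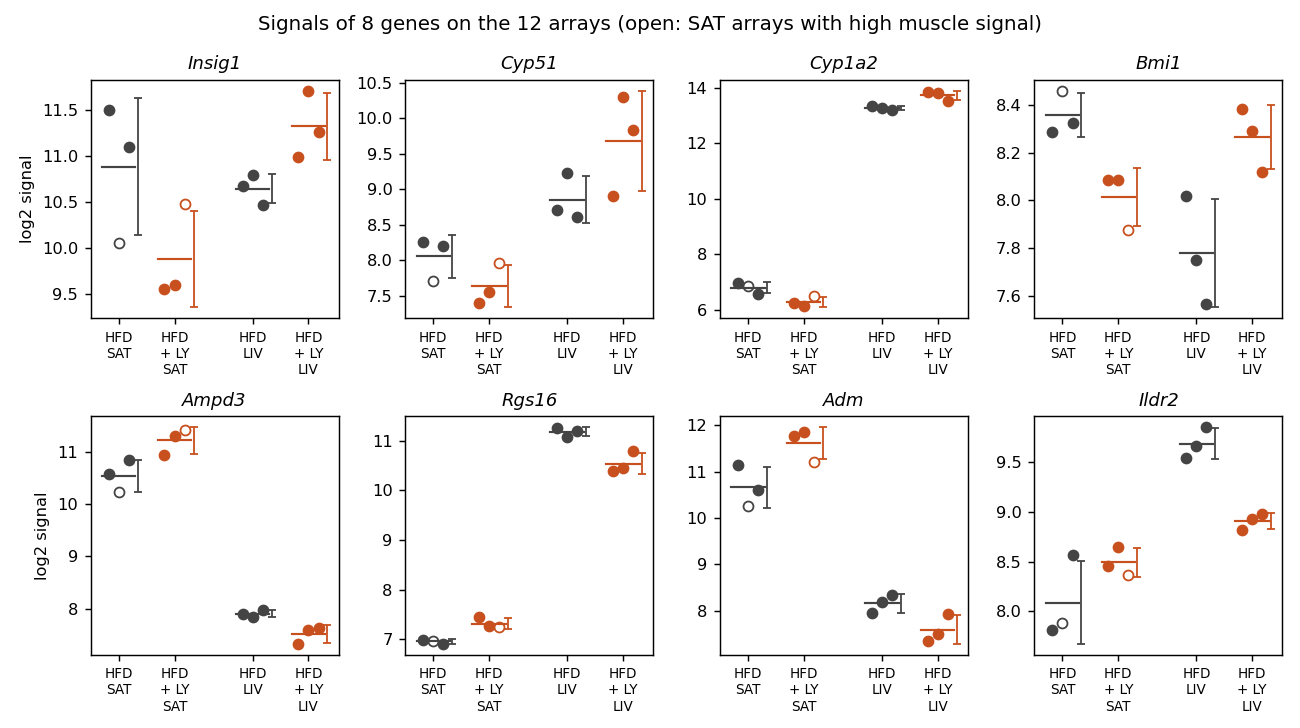
Log2 signal on each of the 12 arrays for 4 genes lower in SAT and higher in LIV of HFD + LY mice (Insig1, Cyp51, Cyp1a2 and Bmi1) and 4 with the reverse pattern (Ampd3, Rgs16, Adm and Ildr2), HFD in grey and HFD + LY in orange. Points are animals, horizontal lines group means and bars 1 SD on each side (n = 3), and open points are the SAT arrays of animals 11 and 20 with the high muscle signal. The vertical axes start at different values and do not start at 0.

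Some members of the list of fatty acid oxidation and ketogenesis, Vnn1 and acyl-CoA thioesterases, had the same direction as these. Vnn1, a pantetheinase that PPARalpha induces in liver, had log2 signals of 9.39, 9.59 and 9.33 in HFD mice and 10.63, 10.77 and 9.46 in HFD + LY mice in SAT. In LIV they were 11.74, 11.62 and 11.78 in HFD mice and 11.15, 11.33 and 11.42 in HFD + LY mice. All HFD + LY arrays were lower in LIV, and in SAT animals 16 and 18 were above every HFD array while animal 20 was within their range. The interaction was 1.27 ± 0.36 (adjusted p = 0.66 by limma) and 1.86 without animals 11 and 20. The acyl-CoA thioesterases encoded side by side as Acot1 to Acot4 shared the LIV side. Acot1 had 0.18 ± 0.11 and -0.34 ± 0.13, Acot4 0.16 ± 0.13 and -0.48 ± 0.17, Acot2 0.21 ± 0.11 and -0.23 ± 0.11, and Acot3 -0.03 and -0.92, the last with the same sign in both. These genes are closely related and may share probes. Of the 27 measured genes of fatty acid oxidation and ketogenesis, 9 (33.3%) were higher in SAT and lower in LIV. The reverse held for 5 (18.5%), beside 25.0% and 23.9% of all genes in these directions. The interaction was positive in 5 and negative in 1 (Ehhadh) at p under 0.05, beside 3.05% and 3.28% of all genes. The 5 became 3 with animal 18 left out, where Acot4 and Acot2 lost the call, and 2 by the plain test on each animal's difference, and Acot2 also lost it without animal 8, 14 or 16. Their median effects, -0.06 in SAT and -0.08 in LIV, had the same sign, so the list as a whole did not split.

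Among single genes lower in SAT and higher in LIV, Bmi1, a Polycomb repressor, read 8.29, 8.46 and 8.32 in HFD mice and 8.08, 8.08 and 7.87 in HFD + LY mice in SAT. In LIV it read 8.02, 7.75 and 7.57 in HFD mice and 8.38, 8.29 and 8.12 in HFD + LY mice. Its groups were apart in both tissues and its interaction was -0.83 ± 0.16 (adjusted p = 0.457 by limma). Cyp1a2, a cytochrome P450 of drug and caffeine metabolism in hepatocytes, read 6.97, 6.86 and 6.58 in HFD mice and 6.24, 6.13 and 6.49 in HFD + LY mice in SAT, low signals below the array medians of 8.16 to 8.28. In LIV it read 13.35, 13.26 and 13.21 in HFD mice and 13.84, 13.80 and 13.52 in HFD + LY mice. It was apart in both tissues, with effects of -0.52 ± 0.14 and 0.44 ± 0.11. Enho, which encodes the liver-made peptide adropin, had 8.82, 8.64 and 8.65 in HFD mice and 8.49, 8.27 and 8.65 in HFD + LY mice in SAT and 9.32, 9.23 and 8.71 in HFD mice and 9.62, 9.72 and 9.74 in HFD + LY mice in LIV. The LIV groups did not overlap, and in SAT HFD + LY animal 20 read as high as HFD animals 11 and 14. Its interaction was -0.84 ± 0.18 (adjusted p = 0.552 by limma).

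Markers of hepatocytes were lower in SAT as well. Of 17 hepatocyte genes, 10 were lower in SAT and higher in LIV, and 4 were lower in SAT at an unadjusted p under 0.05, beside 3.01% of all genes. Among the 4 were Apoa1 (-0.29 in SAT and 0.24 in LIV), Serpina1b (-0.41 and 0.13) and Cyp2e1 (-0.69 and -0.01). Cyp2e1 had SAT means of 11.84 in HFD and 11.15 in HFD + LY mice, far above the list's mean in SAT. The paper counts it among genes of adipocyte performance and found it lower in SAT by PCR. It also lists Cyp2e1 among liver genes that LY lowered, where the LIV array effect here was -0.01 ± 0.09. The mean of the list ran from 8.20 to 8.30 in SAT of HFD mice and from 8.02 to 8.09 in SAT of HFD + LY mice, with 13.43 to 13.49 over the LIV arrays. The share of this in the SAT values of Cyp1a2 and the other liver genes was not tested. Of 8 Mup genes, all 8 had a negative effect in SAT, 7 of them at an unadjusted p under 0.05. The interaction was negative at that p in 7. Their LIV effects went both ways, 4 positive and 4 negative, from -0.39 to 0.26 with a median of -0.02. In LIV alone 1 of these genes was lower at that p and 0 higher. The probe sets of Mup genes may share targets.

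Polr3g, a subunit of RNA polymerase III, had -0.46 ± 0.16 in SAT and 0.34 ± 0.12 in LIV. Naglu, a lysosomal enzyme of heparan sulfate breakdown, had -0.33 ± 0.11 and 0.33 ± 0.10. Both were apart in both tissues. Mrps22, of the mitochondrial ribosome, had -0.31 ± 0.13 and 0.48 ± 0.16. Pop5, of ribonuclease P, had -0.27 ± 0.09 and 0.28 ± 0.09. Rmdn2, a regulator of microtubule dynamics, had -0.32 ± 0.12 and 0.28 ± 0.09. Mrps22 and Rmdn2 were apart in LIV only and Pop5 in both tissues. Aar2, a splicing factor, had -0.25 ± 0.10 and 0.27 ± 0.10, apart in both. Hspb8, a small heat shock protein abundant in muscle, had 10.45, 11.22 and 10.34 in HFD mice and 9.78, 9.69 and 10.40 in HFD + LY mice in SAT, highest in HFD animal 11, and 10.70, 10.78 and 10.76 in HFD mice and 11.03, 10.97 and 11.10 in HFD + LY mice in LIV. Its interaction was -1.0 ± 0.25 (adjusted p = 0.636 by limma), and -0.93 without animals 11 and 20. The unadjusted interaction p of the genes named in this direction stayed under 0.05 with each animal left out in turn, apart from Mmab and members of the sterol, proteasome, chaperone and fatty acid lists. Several of those members lost it with 1 animal or more left out (Insig1 and Cyp51 kept it). Here too the genes were picked for small p on the same arrays, from which this largely follows. Of the 50 probe sets lower in SAT with effects of at least 0.3 in each tissue (interaction p under 0.01), 36 carry no gene symbol. Those with a symbol that are not named here were olfactory receptors, predicted genes and Sly, whose near-identical copies make their values uncertain.

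Of the wider pathways, a list of components of PI3K, AKT and mTOR signalling, in which S6K1 acts, split little in RNA. By gene set enrichment the paper found mTORC1 signalling genes lowered in SAT and raised in LIV. It also found phosphorylated Akt higher in LIV but not in fat. The list here holds parts of the pathway and is not that gene set, which was not tested here, and RNA does not measure phosphorylation. Of 32 measured, 8 were higher in SAT and lower in LIV and 5 the reverse, and the interaction was positive at p under 0.05 in 2 and negative in 1, near the 3.05% and 3.28% of all genes. The 2, of which 0 passed with animal 8, 16 or 18 left out, were Pik3r1, the regulatory subunit of PI3K (0.49 in SAT and -0.07 in LIV), and Grb10, an adaptor that restrains the insulin receptor (0.06 and -0.34). The 1 was Irs2, a docking protein of the insulin receptor (-0.16 and 0.30). Among 24 genes of serine and amino acid metabolism under ATF4, the interaction was negative in 4 and positive in 2 at an unadjusted p under 0.05, beside 3.28% and 3.05% of all genes. The 2 became 0 with animal 8 or 18 left out. The 4 included Shmt2, which feeds one-carbon units from serine in mitochondria (-0.20 and 0.28), Cth, which makes cysteine (-0.66 and 0.02) and the stress factor Atf3 (-0.33 and 0.24). Genes of the cell cycle differed between the tissues without splitting. Of 48, 25 were lower and 0 higher in SAT at an unadjusted p under 0.05 (3.01% and 1.88% of all genes), and 8 lower and 0 higher in LIV (4.09% and 2.96%). The interaction was negative at that p in 9 and positive in 0 (3.28% and 3.05%), 5 with animal 8, 14 or 16 left out and 19 with animal 11 left out, as for Pbk, a mitotic kinase (-1.52 in SAT and -0.28 in LIV) and the proliferation antigen Mki67 (-1.06 and -0.42). Ccne1 and Ccne2, the cyclins of S phase entry, were lower in SAT (-0.48 and -0.53) with LIV effects of 0.08 and 0.08. The zinc-binding metallothioneins stood for the reverse, a change in LIV alone, with -1.32 for Mt1 and -0.98 for Mt2 in LIV and 0.02 and -0.005 in SAT. The zinc importer Slc39a4 had -0.99 in LIV and 0.04 in SAT, and Slc39a10, another importer, 0.44 and -0.08. Fkbp5, a cochaperone of the glucocorticoid receptor that glucocorticoids induce, had 0.52 in SAT and -0.12 in LIV.

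Most of the genes that the study names had the same sign in both tissues. Apart from Rgs16, Insig1, Fasn and Enho above, Cyp4a12a, a male-specific omega-hydroxylase, had 0.15 ± 0.10 in SAT and -1.23 ± 0.17 in LIV. Slc27a1, a fatty acid transporter, had 0.05 ± 0.11 and -0.49 ± 0.13, its SAT sign turning with animal 11 left out. Aebp1, a matrix protein of fibrosis, had 0.15 ± 0.17 and -0.48 ± 0.11. In each the SAT effect was small beside that in LIV. Lgals1, a lectin of macrophages and fibroblasts, was lower in LIV (-1.18 ± 0.18) with -0.18 ± 0.12 in SAT, and its interaction of 1.00 ± 0.14 (adjusted p = 0.158 by limma) lay between effects of the same sign. Cd36, the fatty acid translocase, likewise had -0.96 ± 0.17 in LIV and -0.01 ± 0.10 in SAT. By PCR the paper reported a trend to lower Cd36 in SAT, which these arrays did not show. Mlkl, which executes necroptosis, had -0.41 ± 0.12 in SAT and -0.55 ± 0.13 in LIV, and Zbtb16, a zinc finger factor, 0.55 ± 0.19 and 0.66 ± 0.17, with the groups apart in both tissues. Tlr8, a sensor of single-stranded RNA, had -0.46 ± 0.11 and -0.35 ± 0.11, Gsto1, a glutathione transferase, -0.37 ± 0.11 and -0.24 ± 0.09, and Ffar4, a receptor for long-chain fatty acids, -0.23 ± 0.10 and -0.31 ± 0.11, all apart in both tissues. S100a8, a calcium-binding protein of neutrophils, had -1.06 ± 0.33 and -0.11 ± 0.11, and Fabp5, a fatty acid-binding protein, -0.70 ± 0.29 and -0.22 ± 0.17, with overlap in both tissues. Without animals 11 and 20 the SAT effects of S100a8 and Fabp5 were -1.69 and -1.20. Their interactions went from -0.95 and -0.48 to -1.57 and -1.09. Slc2a1, the glucose transporter GLUT1, had 0.10 ± 0.10 and 0.36 ± 0.11, and Pparg, the master regulator of fat cells, -0.04 ± 0.12 and -0.0021 ± 0.23. The paper lists Pparg among liver genes that LY lowered, which the LIV arrays did not show. Irs1, the docking protein of the insulin receptor, had 0.23 ± 0.21 in SAT and 0.21 ± 0.13 in LIV, and Akt1 0.11 ± 0.11 and 0.05 ± 0.09, with interactions of 0.02 and 0.06.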

How the data were processed

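RNA of SAT and LIV of 6 mice was hybridised to Affymetrix whole-transcript arrays. The authors processed all arrays with RMA (its version is not given in the sources used here), so the deposited values are log2 signals, background-corrected, quantile-normalized and summarized per probe set. No genome build is given for them. Leaving out 6640 controls from 28846 probe sets left 22206, all tested without a filter. A single gene symbol was given for 19572 of these and none for 2634.

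Each tissue was fitted by limma 3.58.1 in R 4.3.3, and the interaction on all 12 arrays with the animal as a fixed block, which leaves 4 residual degrees of freedom. All 22206 p-values entered the Benjamini-Hochberg adjustment. The 2 arrays of an animal carry its number in the labels. Their deviations from the group means correlated by -0.067 to 0.21. No probe set was found for the gene of S6K1, which was not analysed here. The fit was tested on simulated data.

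Genes and lists were chosen with earlier results of these data known, so lists are given as counts and medians, with the brightest probe set of a gene. Named were, per direction, the 12 smallest interaction p among opposite-signed genes (unadjusted p under 0.01, at least 0.3 in size in each tissue, a mean signal of at least 6 in a tissue), up to 12 with p under 0.05 in each tissue, every gene the study names and that had a probe set here, and up to 4 opposite-signed members of each list described. Predicted genes and olfactory receptors were left out of the text. Genes named beyond this rule were chosen after their values were seen. Alternatives were no block or a random block, an intensity trend, quantile or median scaling, a filter on dim probe sets, probe sets with 1 symbol, a plain equal-variance test of each animal's SAT minus LIV difference, each animal left out, animals 11 and 20 left out, and muscle signal as a covariate.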

Additional observations from a re-analysis of the deposited data

How the results depend on the processing

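The count at an adjusted interaction p under 0.05 by limma, 0 as reported (1471 at an unadjusted p under 0.05), was 9 with no replicate block, 14 with the animal as a random block, 13 with an intensity trend, 10 without animals 11 and 20 and 9 with the muscle covariate. It was 0 in the other alternatives, leaving out each animal and the plain test included (1397 unadjusted by the latter). The unadjusted count of 1471 ran from 1018 to 1847 with 1 animal left out and was 2231 without animals 11 and 20. The 279 opposite-signed probe sets at p under 0.01 ran from 177 (without HFD + LY animal 18) to 376 with 1 animal left out, 181 without HFD animal 8 and 179 without HFD animal 14, and were 512 without animals 11 and 20. The 52 with opposite signs and p under 0.05 in each tissue ran from 18 (without animal 18) to 75, and were 79 with an intensity trend and 105 without animals 11 and 20. Dropping the replicate block cannot change a direction, since the interaction is the SAT effect minus the LIV effect with or without it. Only standard errors and p could differ. The animal block rests on the animal numbers that SAT and LIV arrays share in their labels.

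Some values near 0 took the other sign in an alternative. With 1 animal left out in turn, the interaction of Tlr8 ran from -0.2001 (without animal 8) to 0.0682 (without animal 14), that of Pparg from -0.318 (without animal 16) to 0.282 (without animal 20) and that of Irs1 from -0.138 (without animal 18) to 0.178 (without animal 20). Other settings gave 0.025 with quantile normalization and 0.15 without animals 11 and 20 for Pparg, -0.0006 with median centring and -0.0014 with the muscle covariate for Irs1, and -0.016 without animals 11 and 20 for Akt1. The SAT median of the interferon list ran from -0.0603 (without animal 18) to 0.132 (without animal 20), the LIV median of fatty acid synthesis from -0.0393 (without animal 8) to 0.0863 (without animal 16), and the SAT and interaction medians of oxidative phosphorylation from -0.0678 (without animal 14) to 0.0193 (without animal 11) and from -0.122 (without animal 14) to 0.0064 (without animal 11). With quantile normalization these last were 0.031 and 0.016, and the SAT median of ribosomal proteins was 0.018. The causes were not tested. With 3 arrays a group and 4 residual degrees of freedom, small effects were not resolved.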
